A study of Mus musculus with 62 samples.

Results

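The genes described here are 39 mouse genes of glucose uptake, glycolysis and glycogen metabolism, chosen by symbol from the 47643 genes of the deposited table, and read in every one of its 62 soleus libraries. Of the 39, 38 had at least 1 TPM in at least 5 libraries and were tested among 13529 genes. The lowest group mean of a tested member was 1.28 TPM (Slc16a3). The one left out, Aldoc, which encodes aldolase C of brain, had group means of 0.174 to 0.355 TPM. The study followed cachexia, the wasting of muscle and fat that accompanies some tumours. Female mice of 2 months were given melanoma cells labelled cachectic (CAC) or melanoma cells labelled non-cachectic (NCAC), or were mock injected (Con), and the soleus was taken 2, 4, 6 or 8 weeks later. This gives 12 groups with 5 libraries each, except 7 in CAC at 8 weeks. No allele, transgene or drug is named for any group. The sources conflict on the host: the sample entries name the strain C57BL6/J and the design text names NCI Ath/nude mice, an athymic stock that lacks mature T cells and keeps its other immune cells. The extraction text also mentions a time point of another tumour model. Neither melanoma line is named, and the labels do not say whether each kind of cell was 1 line.

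Glucose enters a muscle fibre through transporters of the GLUT family. GLUT4, encoded by Slc2a4, moves to the surface under insulin or contraction, and GLUT1, encoded by Slc2a1, serves basal uptake. Hexokinase traps the sugar as glucose 6-phosphate, which glycolysis turns into pyruvate and lactate, or which is converted by phosphoglucomutase, UDP-glucose pyrophosphorylase, glycogenin, glycogen synthase and branching enzyme into glycogen. Glycogen phosphorylase breaks the stored glycogen down again when phosphorylase kinase activates it, and glycogen-targeting subunits of protein phosphatase 1 oppose that step. The soleus is a postural muscle rich in slow, oxidative fibres.

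The values are TPM, a unit of transcript abundance that corrects for transcript length and for the library total, so that levels of different genes can be set side by side, while the sequencing depth is unknown. Fold changes are on the scale of log2(TPM + 1), which understates those of low genes. A gene was called at an adjusted p under 0.05 with limma, adjusted over the 13529 genes. The labels call the libraries biological replicates, and the p-values measure the spread between these libraries. The tissue label was checked in Con at 6 weeks, where it held: the slow myosin Myh7 averaged 4837 TPM against 19.5 TPM for the fast myosin Myh4. In 3 libraries Myh4 reached at least 500 TPM, namely CAC replicate 4 at 2 weeks, CAC replicate 6 at 8 weeks and NCAC replicate 3 at 6 weeks. In CAC replicate 6 at 8 weeks Myh4 exceeded Myh7 (2040 against 453 TPM), so the check fails there. That library was kept in the main tests. The libraries of 8 weeks stood apart from those of 6 weeks, with summed macrophage markers of 211 to 1312 TPM against 36.2 to 168 TPM over the 3 treatments. In tissue RNA, fewer cells of a type and less RNA per cell cannot be told apart.

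In Con at 2 weeks the level of the members ran from 1852 ± 98.1 TPM for Ldhb, the heart-type lactate dehydrogenase subunit, down to Aldoc. Pgam2 (1663 ± 142 TPM), Aldoa (1516 ± 95.1 TPM), Eno3 (1224 ± 156 TPM), Pfkm (978 ± 42.2 TPM) and Pygm (919 ± 38.1 TPM) followed (SD, n = 5), all muscle forms of their enzymes. Slc2a4 stood at 326 ± 18.4 TPM and Slc2a1 at 11.3 ± 1.60 TPM. The 39 genes together held 1.38% ± 0.0352 of all TPM in Con at 2 weeks. They held 1.36% ± 0.111 in Con and 1.38% ± 0.065 in CAC at 6 weeks, and those groups overlapped.

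At 6 weeks the CAC soleus differed from Con in 14 of the 38 members, 9 higher and 5 lower. The largest rises were Ppp1r3c, a glycogen-targeting subunit of protein phosphatase 1 (2.16-fold), and Slc2a1 (2.13-fold). Phkg1, the catalytic subunit of muscle phosphorylase kinase, fell by 1.01 on the log2 scale, and Pfkm, the muscle phosphofructokinase, fell by 0.34. Of all genes tested, 27.4% were called in this comparison, 23.5% as higher and 3.87% as lower. The members' 23.7% higher was near that background, and their 13.2% lower was above it. The median log2 fold change was 0.205 over the members and 0.16 over all genes tested. Against NCAC at 6 weeks, which shares the CAC libraries, 16 members were called, 11 higher and 5 lower (28.9% and 13.2% of 38), beside 27.8% and 4.86% of all genes and 32.6% in either direction. The member median there was 0.0882 against 0.164 over all genes. In both comparisons 12 members were called in the same direction: 8 higher (Slc2a1, Hk1, Gpi1, Pfkl, Pfkp, Pfkfb4, Pgm1, Ppp1r3c) and 4 lower (Pfkm, Ldhb, Pgm2, Phkg1). The share of all genes called in both was not computed, so the count of 12 has no background beside it.

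The split into higher and lower depends on the scale. Median-of-ratios rescaling lowered the median gene by 0.152 for CAC against Con and by 0.154 for CAC against NCAC at 6 weeks. It left 4 members higher and 8 lower against Con, and 6 higher and 8 lower against NCAC. The median log2 fold change was then 0.0221 over the members and 0.00791 over all genes against Con. Against NCAC it was -0.109 and 0.00994. Shares of all genes called higher or lower after a rescaling are not given here. These and later rescaled counts therefore describe the members alone. Slc2a1 (0.91), Ppp1r3c (0.92), Gpi1 (0.36) and Pfkp (0.33) stayed higher than Con on that scale, with the log2 fold change in brackets, and Pkm, Eno1 and Phkb joined the lower members. With mitochondrial transcripts taken out of the total, the split was 5 higher and 8 lower against Con and 7 and 6 against NCAC. The mitochondrial share of TPM was 27.8 to 40.0% in CAC and 38.1 to 40.9% in Con at 6 weeks.

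**Figure D1:**
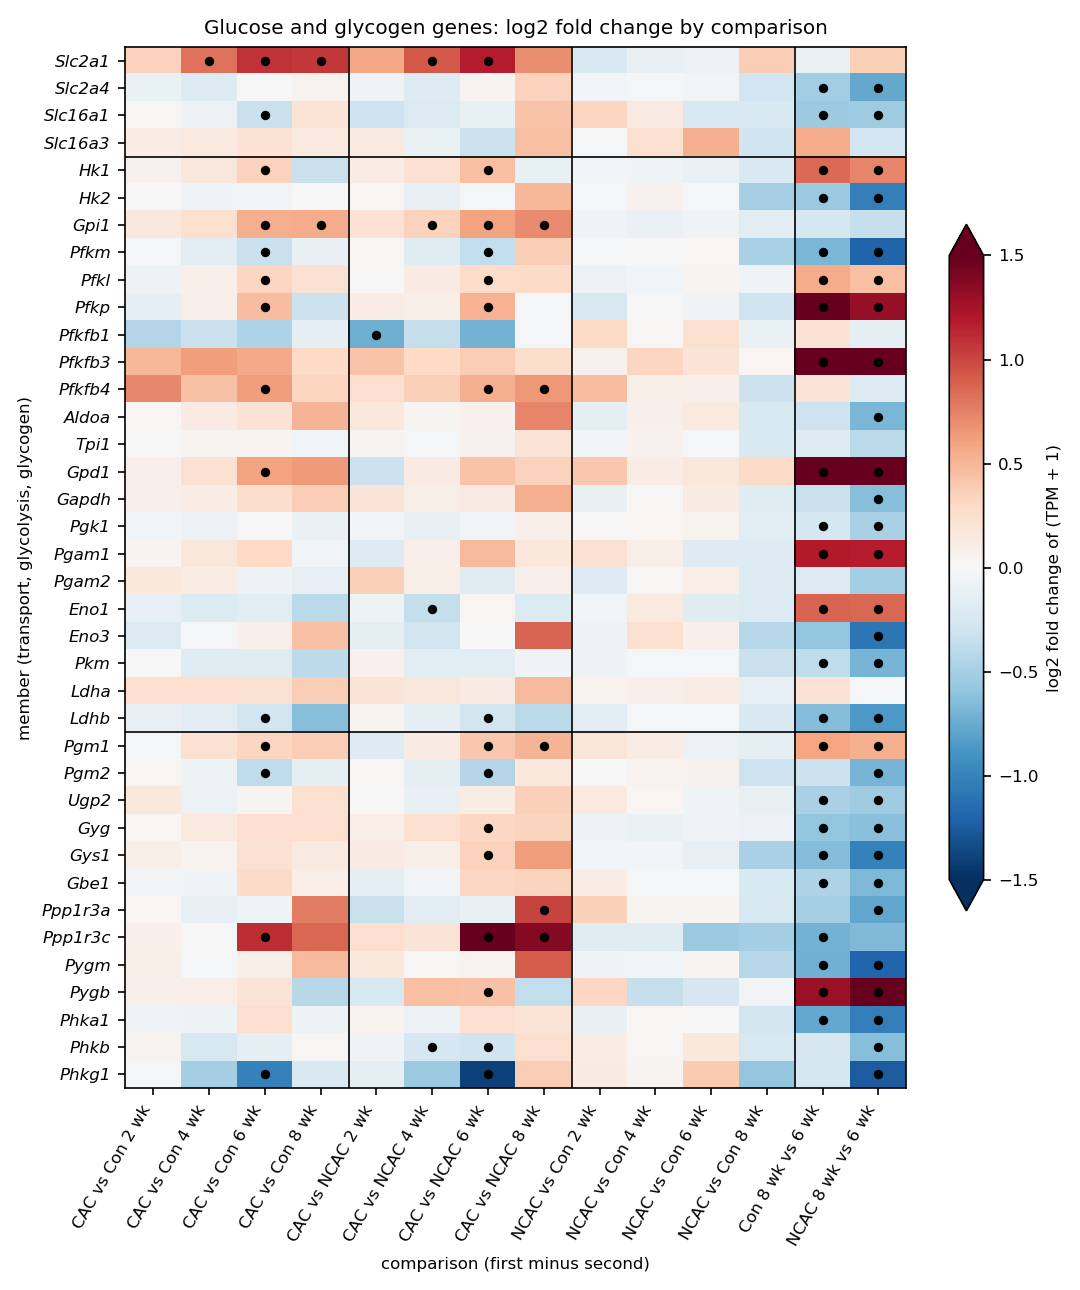
Log2 fold change of (TPM + 1) for the 38 tested members (rows, grouped as transport, glycolysis and glycogen) in each comparison (columns), red for higher and blue for lower in the first group, with a dot where the limma adjusted p is under 0.05. Dots are densest in the 6-week columns of CAC (14 against Con, 16 against NCAC) and in both columns of 8 against 6 weeks (23 in Con, 29 in NCAC), and absent in those of NCAC against Con.

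The 250 bases before the RefSeq transcription start are printed, so that the genes that moved most can be read side by side. They are given for the 3 members with the largest rises against Con among the 12, and for the one with the largest fall. They come from RefSeq on GRCm38.p6, 5′ to 3′ on the gene's strand, and capitals mark ACGTG on either strand, the core of the hypoxia response element.
Ppp1r3c: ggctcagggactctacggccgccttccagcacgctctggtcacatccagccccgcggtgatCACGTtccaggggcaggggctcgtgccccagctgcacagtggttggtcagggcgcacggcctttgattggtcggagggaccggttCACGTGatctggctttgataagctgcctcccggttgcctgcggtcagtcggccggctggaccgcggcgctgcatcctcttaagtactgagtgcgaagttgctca
Slc2a1: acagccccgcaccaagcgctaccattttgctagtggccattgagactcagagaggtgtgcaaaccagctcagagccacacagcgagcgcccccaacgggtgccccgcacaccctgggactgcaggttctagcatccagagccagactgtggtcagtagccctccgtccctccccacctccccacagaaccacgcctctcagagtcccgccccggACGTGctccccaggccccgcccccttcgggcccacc
Pfkfb4: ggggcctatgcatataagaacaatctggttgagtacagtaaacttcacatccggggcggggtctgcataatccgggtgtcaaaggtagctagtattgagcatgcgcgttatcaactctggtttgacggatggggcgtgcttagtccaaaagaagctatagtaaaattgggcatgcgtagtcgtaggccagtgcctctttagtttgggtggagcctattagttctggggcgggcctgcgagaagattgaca
Phkg1: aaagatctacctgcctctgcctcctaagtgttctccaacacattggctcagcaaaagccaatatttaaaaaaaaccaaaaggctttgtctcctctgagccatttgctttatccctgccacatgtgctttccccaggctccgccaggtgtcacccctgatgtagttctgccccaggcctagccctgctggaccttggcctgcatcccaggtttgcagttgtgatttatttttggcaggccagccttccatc
They lie at chr19:36736605-36736854 (minus strand), chr4:119108495-119108744 (plus), chr9:108991652-108991901 (plus) and chr5:129879089-129879338 (minus). The RefSeq starts differ from the GENCODE starts behind the gene positions given below. Each sequence reaches past the GENCODE start of its gene. That of Phkg1 lies wholly inside the GENCODE gene (chr5:129863421-129898549, minus strand) and is not upstream of its GENCODE start. The Ppp1r3c sequence holds 3 matches, starting at -189, -104 and -103 from the RefSeq start, of which the last pair overlap in CACGTG, the E-box bound by Myc and ChREBP. The Slc2a1 sequence holds 1 match, at -36, and those of Pfkfb4 and Phkg1 hold none. Over RefSeq windows of 250 bases before to 50 after a start, on both strands, ACGTG was in 22 of 51 windows of the members (43.1%, in 19 of 35 members with a window) and in 19.6% of 32851 windows of all genes. CACGTG, which contains ACGTG, was in 6 of 51 (11.8%) against 7.15%. TTCNNNGAA, a STAT site, was in 2 of 51 (3.92%) against 8.30%, and the glucocorticoid response element was in 0 of 51 against 0.0487%. A match describes letters and shows no binding.

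Of the transporters, Slc2a1 (mm10 chr4:119108711-119137983, plus strand) was called as higher in CAC than in Con at 4, 6 and 8 weeks, more weeks than any other member. At 6 weeks its level was 50.8, 24.5, 25.6, 26.5 and 19.1 TPM in the 5 CAC libraries, 16.7, 15.5, 9.81, 12.7 and 9.27 TPM in Con and 11.1, 10.1, 14.4, 14.6 and 9.17 TPM in NCAC. Every CAC library was above every Con and NCAC library, and CAC replicate 1 stood highest. The log2 fold change was 1.09 against Con (SE 0.22, limma adjusted p = 0.00273) and 1.18 against NCAC (adjusted p = 0.00115). Slc2a4 (chr11:69942539-69948188, minus strand) read 418, 315, 343, 299 and 305 TPM in CAC and 296, 347, 332, 354 and 335 TPM in Con. The groups overlapped, and its log2 fold change was 0.00 with a 95% interval of -0.19 to 0.20 (adjusted p = 0.978). Within a library Slc2a1 made up 7.81% ± 1.88 of the TPM of both transporters in CAC and 3.73% ± 1.10 in Con, and the ranges, 5.91 to 10.9% and 2.69 to 5.35%, did not overlap. The transporters of lactate and pyruvate were below Slc2a4 in CAC and Con at 6 weeks, and of them Slc16a1 was above Slc2a1. Slc16a1, which encodes MCT1, had 57.8, 60.8, 66.9, 58.3 and 52.7 TPM in CAC and 65.4, 86.3, 73.9, 67.9 and 82.0 TPM in Con. It was lower in CAC (log2 fold change -0.33, SE 0.11, adjusted p = 0.0377), where 1 CAC library lay above the lowest Con library. Slc16a3, which encodes the lactate exporter MCT4, read 1.94, 1.59, 1.96, 1.29 and 1.50 TPM in CAC and 1.20, 0.870, 0.958, 1.34 and 2.24 TPM in Con. Those values overlapped (log2 fold change 0.22, 95% interval -0.28 to 0.71, adjusted p = 0.492).

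**Figure D2:**
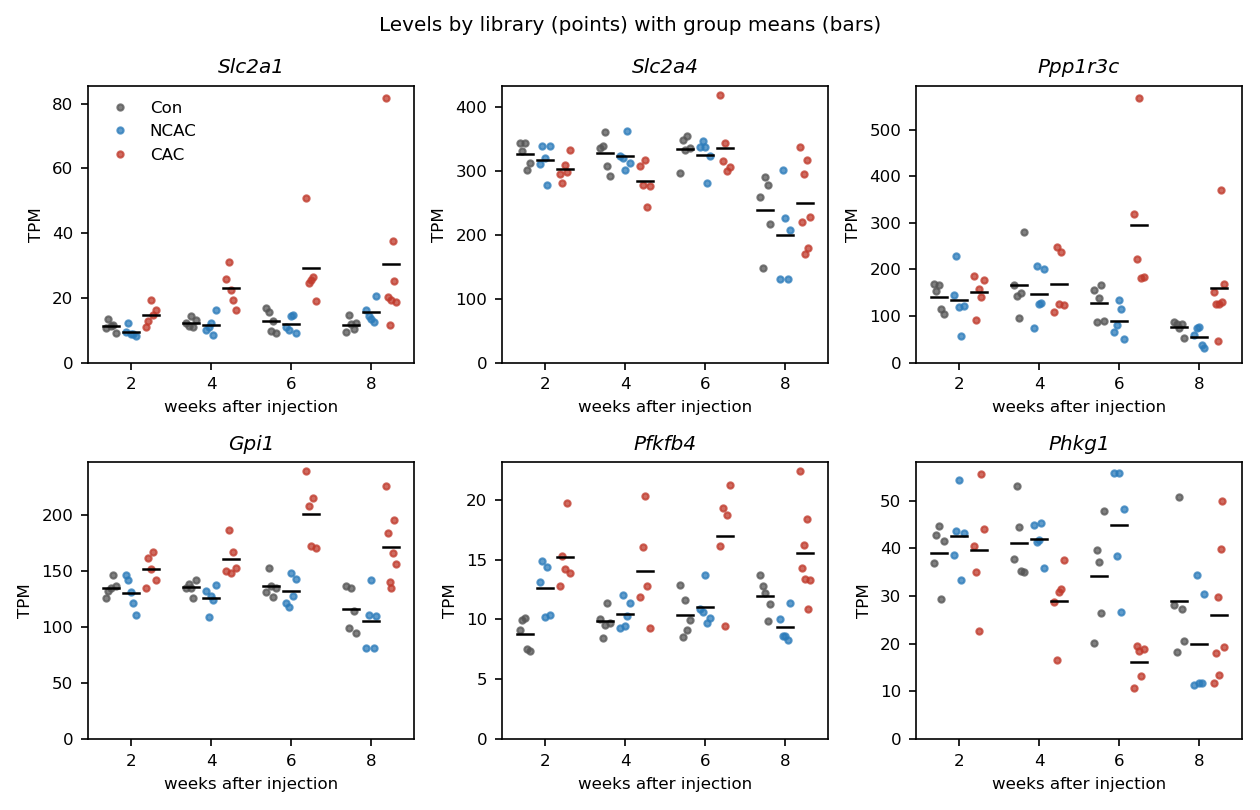
TPM of 6 members in each library (points) with the group mean (bar), by weeks after injection, for Con (grey), NCAC (blue) and CAC (red), each axis starting at 0. At 6 weeks the CAC points of Slc2a1, Ppp1r3c and Gpi1 lie above all Con and NCAC points and those of Phkg1 below them, whereas the points of Slc2a4 overlap.

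In the upper steps of glycolysis and the glycerol phosphate branch, 6 members rose and 1 fell against Con at 6 weeks. Gpi1 (chr7:34201330-34230336, minus strand), the enzyme that turns glucose 6-phosphate into fructose 6-phosphate, had 239, 208, 172, 214 and 170 TPM in CAC, 131, 152, 136, 126 and 135 TPM in Con and 121, 118, 148, 127 and 143 TPM in NCAC. The groups did not overlap, and Gpi1 rose 1.46-fold against Con (log2 0.55, SE 0.10, adjusted p = 0.0013). Pfkm (chr15:98092589-98132451, plus strand) had 704, 686, 775, 777 and 744 TPM in CAC and 814, 1008, 966, 881 and 994 TPM in Con. All 5 CAC libraries were below all Con libraries (log2 fold change -0.34, SE 0.086, adjusted p = 0.0112). The NCAC libraries had 979, 955, 1106, 820 and 921 TPM (-0.37, adjusted p = 0.00515). The other phosphofructokinase genes went the opposite way. Pfkp, the platelet form, had 2.89, 2.80, 3.33, 3.17 and 2.29 TPM in CAC and 2.09, 1.44, 1.68, 1.85 and 2.07 TPM in Con, with no overlap (0.46, SE 0.10, adjusted p = 0.00447). Pfkl, the liver form, had 11.1, 9.74, 10.4, 9.66 and 8.12 TPM in CAC and 6.83, 7.20, 8.62, 7.62 and 7.90 TPM in Con, where 1 Con library exceeded the lowest CAC library (0.32, SE 0.093, adjusted p = 0.0208). The share of both in the TPM of all 3 phosphofructokinase genes was 1.70% ± 0.211 in CAC (1.38 to 1.95%) and 1.01% ± 0.0949 in Con (0.851 to 1.08%), so Pfkm remained most of the transcript in every library.

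Of the hexokinases, Hk1 rose and Hk2 did not pass. Hk1, the general form, had 6.46, 4.38, 5.28, 5.47 and 5.36 TPM in CAC and 4.16, 4.32, 3.67, 4.01 and 3.78 TPM in Con (log2 fold change 0.35, SE 0.10, adjusted p = 0.0219). The lowest CAC library lay just above the highest Con library. Hk2, the insulin-responsive form of muscle, had 166, 151, 165, 138 and 134 TPM in CAC and 142, 169, 159, 143 and 159 TPM in Con. It did not pass (-0.04, 95% interval -0.22 to 0.15, adjusted p = 0.779), and its groups overlapped. Pfkfb4, a bifunctional enzyme that sets the phosphofructokinase activator fructose 2,6-bisphosphate, had 16.1, 19.3, 9.48, 18.7 and 21.3 TPM in CAC and 12.9, 8.50, 11.6, 9.15 and 9.92 TPM in Con. In 4 of 5 CAC libraries it was above every Con library, and CAC replicate 3 lay inside the Con range (0.62, SE 0.17, adjusted p = 0.0157). Its relative Pfkfb3 had 14.8, 17.7, 5.18, 18.6 and 6.62 TPM in CAC and 9.70, 8.77, 4.64, 6.74 and 7.21 TPM in Con. With CAC libraries both above and inside the Con range, Pfkfb3 did not pass (0.57, 95% interval -0.12 to 1.27, adjusted p = 0.191). Gpd1, the cytosolic glycerol 3-phosphate dehydrogenase, had 52.1, 43.7, 51.4, 65.8 and 51.4 TPM in CAC and 26.4, 42.3, 37.8, 30.9 and 36.0 TPM in Con. The groups did not overlap (0.60, SE 0.16, adjusted p = 0.0133), while against NCAC it was not called. Adipocytes also carry Gpd1, and 5 of 7 adipocyte markers rose against Con and 5 of 7 against NCAC. The part of adipocytes in the Gpd1 values was not tested.

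In the lower steps, few members were called on the TPM scale. Between Aldoa and Pkm, none of Aldoa, Tpi1, Gapdh, Pgk1, Pgam1, Pgam2, Eno1, Eno3 and Pkm was called against Con or NCAC at 6 weeks. Of all genes, 27.4% and 32.6% were called in these comparisons. After median-of-ratios rescaling Pkm and Eno1 were called as lower than Con. Against Con the closest was Gapdh (log2 fold change 0.26, adjusted p = 0.0511). Eno3, the muscle enolase, had 1220, 1289, 1328, 999 and 1346 TPM in CAC and 663, 1490, 1212, 1117 and 1636 TPM in Con, a wide spread within Con (0.07, 95% interval -0.37 to 0.51, adjusted p = 0.813). The share of reads of Eno1, the general enolase, is uncertain, because the table also lists the near-identical copy Eno1b at 29.2 to 132 TPM. Of the lactate dehydrogenase subunits, Ldhb had 1188, 1752, 1667, 1546 and 1422 TPM in CAC and 1826, 2004, 1677, 1967 and 1738 TPM in Con. Only 1 CAC library exceeded the lowest Con library, and Ldhb was lower in CAC (log2 fold change -0.29, SE 0.098, adjusted p = 0.0379). Ldha, the muscle-type subunit, had 352, 338, 363, 355 and 389 TPM in CAC and 255, 319, 306, 281 and 380 TPM in Con. It did not pass, with 1 Con library inside the CAC range (0.23, 95% interval 0.02 to 0.44, adjusted p = 0.0917). The share of Ldha in both subunits was 19.4% ± 2.71 in CAC and 14.4% ± 2.35 in Con.

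The glycogen genes held the largest change in each direction. Ppp1r3c (chr19:36731731-36736653, minus strand) had 320, 223, 567, 182 and 185 TPM in CAC, 157, 87.5, 138, 166 and 89.2 TPM in Con and 64.7, 81.2, 133, 115 and 49.9 TPM in NCAC. All CAC libraries exceeded all others, with CAC replicate 3 far above its group. The log2 fold change was 1.11 against Con (SE 0.32, adjusted p = 0.0182) and 1.67 against NCAC, a 3.18-fold difference (SE 0.32, adjusted p = 0.00132). Phkg1 (chr5:129863421-129898549, minus strand) had 10.7, 19.6, 18.4, 13.2 and 18.9 TPM in CAC, 20.2, 39.7, 37.1, 26.5 and 47.9 TPM in Con and 55.7, 38.4, 55.7, 26.6 and 48.2 TPM in NCAC. Every CAC library was below every other library of that week, although the highest CAC and the lowest Con values were close. The log2 fold change was -1.01 against Con (SE 0.24, adjusted p = 0.00684) and -1.40 against NCAC (SE 0.24, adjusted p = 0.000541). The other phosphorylase kinase subunits moved less: Phka1 was not called in either comparison, and Phkb, the beta subunit, was called against NCAC only. It had 23.2, 25.6, 23.1, 22.99 and 21.7 TPM in CAC and 30.1, 30.9, 36.3, 26.0 and 22.998 TPM in NCAC. The lowest NCAC library lay inside the CAC range, and Phkb fell by 0.30 on the log2 scale (adjusted p = 0.0395). Pygm, the muscle phosphorylase that the kinase activates, had 994, 1070, 905, 875 and 883 TPM in CAC and 708, 1006, 926, 857 and 952 TPM in Con. Those groups overlapped (0.09, 95% interval -0.15 to 0.33, adjusted p = 0.546).

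On the side of glycogen synthesis, the rows Pgm1 and Pgm2 are phosphoglucomutases whose symbols are exchanged between annotation releases, so the locus of each row is uncertain. The row Pgm2 had 135, 140, 143, 142 and 141 TPM in CAC and 156, 183, 192, 166 and 226 TPM in Con, with no overlap (log2 fold change -0.38, SE 0.13, adjusted p = 0.0418). The row Pgm1 had 7.45, 6.65, 6.93, 6.75 and 5.79 TPM in CAC and 4.81, 4.98, 5.51, 4.46 and 6.21 TPM in Con, where 1 Con library lay above the lowest CAC library (0.32, SE 0.092, adjusted p = 0.0195). The higher-expressed row thus fell and the lower-expressed row rose. Gys1, muscle glycogen synthase, had 494, 487, 408, 425 and 382 TPM in CAC, 383, 375, 367, 376 and 368 TPM in Con and 353, 373, 397, 319 and 282 TPM in NCAC. In 4 of 5 CAC libraries it was above all Con and NCAC libraries, and Gys1 passed against NCAC (0.35, adjusted p = 0.0113) but not against Con (0.23, 95% interval 0.03 to 0.42, adjusted p = 0.0829). Gyg, glycogenin, which primes the glycogen particle, had 794, 634, 592, 775 and 538 TPM in CAC and 468, 552, 589, 514 and 547 TPM in NCAC (0.31, adjusted p = 0.0386). Its lowest CAC library lay inside the NCAC range. Pygb, the brain phosphorylase, had 13.0, 17.6, 10.7, 15.7 and 11.9 TPM in CAC and 8.46, 11.2, 11.8, 9.03 and 8.56 TPM in NCAC, which overlapped (0.44, adjusted p = 0.0218). Ugp2, Gbe1 and Ppp1r3a, a muscle-specific targeting subunit of protein phosphatase 1, were called in neither comparison at 6 weeks.

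**Figure D3:**
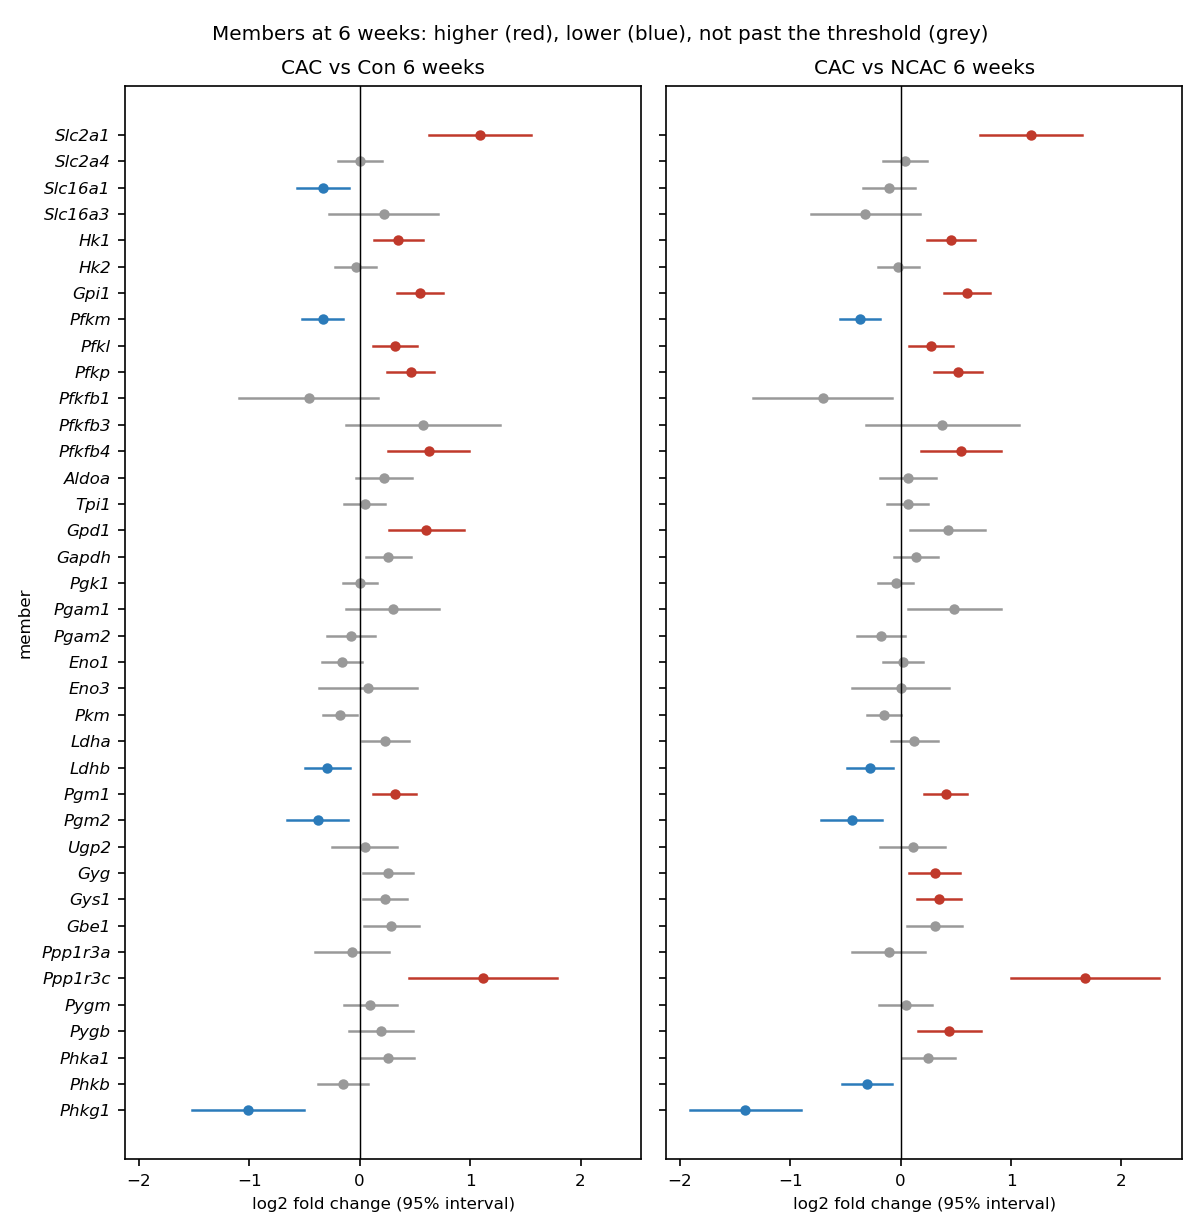
Log2 fold change of (TPM + 1) with its 95% interval for each tested member at 6 weeks, CAC against Con (left) and CAC against NCAC (right), red where higher and blue where lower at a limma adjusted p under 0.05, grey otherwise. Ppp1r3c (1.11 and 1.67) and Slc2a1 (1.09 and 1.18) lie farthest to the right and Phkg1 (-1.01 and -1.40) farthest to the left, while the interval of Slc2a4 spans 0.

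Of the 14 members called against Con at 6 weeks, 9 had groups that did not overlap, and of the 16 called against NCAC, 8. Overlap was not computed over all genes, so these counts describe the members and have no background beside them. Leaving out CAC replicate 1 left 7 of the 14 calls, and leaving out Con replicate 2 left 9. The calls of Slc2a1, Gpi1, Pfkm, Pfkp, Pfkfb4, Gpd1 and Phkg1 held without any single library. That of Ppp1r3c was lost without CAC replicate 1 (adjusted p = 0.0513) or Con replicate 2 (0.0506). Those of Hk1, Pfkl and Pgm1 were each lost without CAC replicate 1 (0.0683, 0.0631 and 0.0585) and without Con replicate 3, 2 or 4 respectively (0.053, 0.0521 and 0.0558). Those of Slc16a1, Ldhb and Pgm2 were each lost without CAC replicate 1 or 4 or Con replicate 2 and without 3 to 5 further libraries, at adjusted p up to 0.10, 0.102 and 0.101. Against NCAC, those of Gyg, Ldhb, Pfkl and Phkb were lost without 7 of the 10 libraries each, at adjusted p up to 0.111, 0.113, 0.095 and 0.0907. Pfkfb4 was lost without CAC replicate 2 or 4 or NCAC replicate 4 or 5 (up to 0.0622) and Pygb without CAC replicate 2 or 4 or NCAC replicate 1 or 5 (up to 0.0595). Fitting all 12 groups together, with 1 spread per gene over all weeks, left 6 of the 14 calls against Con (5 higher, 1 lower) and added none. Among the calls lost against Con were Pfkm (adjusted p = 0.157), Gpd1 (0.277) and Pfkp (0.0583), which had held without any single library. Against NCAC it left 9 of the 16 and added Pfkfb1 (-0.71, adjusted p = 0.0177), for 7 higher and 3 lower. Pfkm was lost there too (adjusted p = 0.11), as were Pfkl, Ldhb, Pygb, Phkb, Gys1 and Gyg (0.0521 to 0.259).

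Markers of other cell types moved between the same libraries at 6 weeks. Summed over 10 macrophage markers, CAC had 134 to 168 TPM, Con 70.4 to 98.4 TPM and NCAC 36.2 to 130 TPM, and 6 of the 10 rose against Con and 7 against NCAC. Over 7 adipocyte markers the sums were 1810 to 3147 TPM in CAC, 1108 to 1282 TPM in Con and 829.2 to 1633 TPM in NCAC, with 5 of 7 risen in each comparison. Of 7 neutrophil markers, 3 were tested and rose in both, with sums of 12.7 to 28.3 TPM in CAC and 4.70 to 12.7 TPM in Con. The neutrophil markers Ly6g, Mpo, Elane and Retnlg were at 0 in some libraries of these groups. None of 10 fast-fibre or 8 slow-fibre markers was called against Con by limma, with 1 and 2 at an unadjusted p under 0.05. Fast-fibre sums were 8653 to 24231 TPM in CAC and 10441 to 24718 TPM in Con, and slow-fibre sums 31583 to 50594 TPM and 31557 to 43428 TPM. Against NCAC, 1 fast-fibre and 1 slow-fibre marker fell. Sums of fibro-adipogenic progenitor markers were 700 to 825 TPM in CAC, 535 to 705 TPM in Con and 396 to 664 TPM in NCAC. Endothelial sums were 155 to 204 TPM in CAC, 139 to 166 TPM in Con and 128 to 178 TPM in NCAC. Sums of tendon, Schwann and erythroid markers overlapped between CAC and Con. The part of these cell types in the members' changes was not tested.

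At 2 weeks no member was called between CAC and Con, beside 0% of all genes called in limma. At an unadjusted p under 0.05 there were 4 of 38 members (10.5%) and 9.72% of all genes. Against NCAC, 1 member of 38 was called beside 0.503% of all genes. This was Pfkfb1, the liver and muscle form of the bifunctional enzyme, at 7.30, 8.01, 4.64, 7.07 and 8.11 TPM in CAC and 11.96, 12.8, 11.7, 12.8 and 11.5 TPM in NCAC. The groups did not overlap (log2 fold change -0.73, SE 0.13, adjusted p = 0.0415), and Con spanned 8.16 to 13.3 TPM. The call was lost without CAC replicate 4 (adjusted p = 0.119) and without NCAC replicate 1 (0.0951), 3 (0.0637), 4 (0.0667) or 5 (0.101). Without CAC replicate 1 the count was 3, and without CAC replicate 2 or NCAC replicate 2 it was 2. In CAC, Slc2a1 was then at 14.8 ± 3.17 TPM, against 11.3 ± 1.60 TPM in Con (SD, n = 5).

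At 4 weeks Slc2a1 was the only called member against Con, beside 1.03% of all genes (0.902% as higher). It had 25.7, 30.9, 22.3, 19.5 and 16.3 TPM in CAC and 12.1, 11.3, 14.3, 10.9 and 13.2 TPM in Con, with no overlap (log2 fold change 0.82, SE 0.17, adjusted p = 0.0328). That call held without CAC replicate 1 or 5 and was lost without any other library of the pair, at adjusted p up to 0.088. Without CAC replicate 5, 3 members were called. Against NCAC, whose 5 libraries had 10.1, 11.0, 12.1, 8.49 and 16.3 TPM, Slc2a1 rose as well (0.92, adjusted p = 0.0124), and this call held without any single library. Of 38 members, 4 were called against NCAC, beside 5.84% of all genes, 2 higher and 2 lower against 5.11% and 0.732%. Gpi1 had 150, 186, 148, 166 and 153 TPM in CAC and 132, 109, 127, 124 and 137 TPM in NCAC (0.35, adjusted p = 0.0204). Each Gpi1 value of CAC was above each of NCAC, but the call was lost without CAC replicate 4 (adjusted p = 0.0573) or NCAC replicate 2 (0.0521). Eno1 (-0.36, adjusted p = 0.0394) and Phkb (-0.26, adjusted p = 0.0427) were lower. Both calls were lost without CAC replicate 2 or 4 or any single NCAC library, and that of Eno1 also without CAC replicate 3, at adjusted p up to 0.0906 and 0.0948. The count of 4 ranged from 1 (without CAC replicate 4 or NCAC replicate 2) to 7 (without CAC replicate 5). It was 2 without CAC replicate 2 or without NCAC replicate 1, 3, 4 or 5.

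At 8 weeks 2 of 38 members were called in CAC against Con (5.26%, both higher), beside 10.6% of all genes, 6.31% as higher and 4.26% as lower. Slc2a1 ranged from 11.6 to 81.7 TPM with a median of 20.1 TPM in the 7 CAC libraries and had 9.37, 14.7, 11.9, 10.4 and 12.3 TPM in Con. In 6 of 7 CAC libraries it was above the Con mean, and the groups overlapped (log2 fold change 1.06, SE 0.32, adjusted p = 0.0459). Gpi1 ranged from 134 to 226 TPM with a median of 166 TPM in CAC and had 136, 98.8, 134, 114 and 94.5 TPM in Con. All 7 CAC libraries were above the Con mean, and the lowest overlapped the highest Con values (0.56, SE 0.16, adjusted p = 0.0367). The call of Slc2a1 was lost without CAC replicate 2, 4, 5 or 6 or any single Con library (adjusted p up to 0.102), and that of Gpi1 without CAC replicate 1, 2, 5 or 6 or Con replicate 2, 4 or 5 (up to 0.0974). With any 1 library left out, between 0 and 3 members were called. On the median-of-ratios scale 1 member was higher (Slc2a1, 1.01) and 1 lower (Hk1, -0.37). Ppp1r3a had 53.4 to 107 TPM with a median of 63.9 TPM in CAC and 49.4, 20.3, 47.8, 46.8 and 45.7 TPM in Con. Although the groups did not overlap, it missed the threshold (0.77, adjusted p = 0.0722). Ldhb (-0.63, adjusted p = 0.165) and Ldha (0.37, adjusted p = 0.225) did not pass either. Against Con, 2 of 8 slow-fibre markers fell and 1 of 10 fast-fibre markers rose at 8 weeks, with slow-fibre sums of 14352 to 36259 TPM in CAC and 26984 to 32496 TPM in Con. Their part in the members' values was not tested.

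Against NCAC at 8 weeks, 5 of 38 members rose (13.2%) and none fell, beside 19.3% and 2.68% of all genes, 21.9% in all. Ppp1r3c ranged from 46.4 to 371 TPM with a median of 130 TPM in CAC and had 59.0, 73.6, 76.3, 38.8 and 30.8 TPM in NCAC. Ppp1r3a had 23.6, 64.8, 44.3, 23.6 and 27.3 TPM in NCAC. The groups overlapped for both, at log2 fold changes of 1.37 (SE 0.36, adjusted p = 0.0134) and 1.01 (adjusted p = 0.0141). Gpi1 (0.71, adjusted p = 0.00686), with 81.2, 110, 142, 81.5 and 110 TPM in NCAC, was called too. So was Pfkfb4 (0.65, adjusted p = 0.00619), at 10.9 to 22.4 TPM with a median of 14.3 TPM in CAC and 10.1, 8.64, 8.59, 8.31 and 11.4 TPM in NCAC. The row Pgm1 (0.51, adjusted p = 0.0345) lost its call without CAC replicate 2, 4 or 7 or NCAC replicate 2 or 3 (adjusted p up to 0.0971), and without CAC replicate 6, the library with 2040 TPM of Myh4, 9 members were called. Median-of-ratios rescaling, which lowered the median gene by 0.177 here, left only Pfkfb4 (0.45). In Con at 8 weeks Ppp1r3c had 86.4, 83.0, 75.3, 83.6 and 52.5 TPM, and it did not pass between CAC and Con (0.86, adjusted p = 0.129).

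No member was called by limma between the mice given non-cachectic cells and Con at any week, beside at most 0.00739% of all genes called. At an unadjusted p under 0.05 there were 7, 0, 2 and 0 members at 2, 4, 6 and 8 weeks (18.4%, 0%, 5.26% and 0%), beside 11.4%, 1.79%, 2.42% and 8.91% of all genes. At 8 weeks the members' median log2 fold change was -0.228 against -0.165 over all genes, and 3 of 38 were positive. The share of all genes that were positive was not computed. After median-of-ratios rescaling the median was -0.0601 over the members and -0.0217 over all genes.

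Between weeks, the members of Con differed at 8 weeks from 6. Each week is a separate set of libraries, so time cannot be told apart from anything else that differed between the sets. Between 2 and 6 weeks none was called in limma, beside 0% of all genes called. At an unadjusted p under 0.05 there were 4 members (10.5%) and 8.97% of all genes. Between 6 and 8 weeks 23 of 38 were called in Con, 9 higher (23.7%) and 14 lower (36.8%), where 54.1% of all genes were higher and 9.65% lower, 63.7% in all. The members' median was -0.262 and that of all genes 0.295. Median-of-ratios rescaling, which lowered the median gene by 0.303, gave 9 higher and 24 lower. The median was then -0.622 over the members and -0.00829 over all genes. In NCAC, 29 were called over the same weeks, 9 higher (23.7%) and 20 lower (52.6%), beside 31.9% and 12.7% of all genes, 44.6% in all. Without NCAC replicate 1 or 4 of week 8 that count was 19. The same 9 members were higher in both: Hk1, Pfkl, Pfkp, Pfkfb3, Gpd1, Pgam1, Eno1, Pgm1 and Pygb. For all genes the share higher in both was not computed. In NCAC the call of Pfkl was lost without any 1 of 8 of the 10 libraries and with no filter, median-of-ratios rescaling or mitochondrial transcripts taken out, at adjusted p up to 0.105. That of Pgm1 was lost without any 1 of 4 libraries (up to 0.059), while the other 7 held without any single library. Of the 29 calls in NCAC, 19 held without any single library, and of the 23 in Con, 20.

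Among the members that were higher at 8 weeks, Pfkfb3 had 15.5, 62.1, 31.7, 23.7 and 41.0 TPM in Con at 8 weeks against the 4.64 to 9.70 TPM of week 6, with no overlap (log2 fold change 1.98, adjusted p = 0.000253). Pfkp had 6.85, 12.2, 6.98, 5.39 and 6.02 TPM (1.54), and Hk1 had 8.55, 10.1, 7.58, 6.50 and 7.60 TPM (0.85, adjusted p = 3.9e-05), also above every library of week 6. Gpd1 had 36.1, 114, 205, 133 and 100 TPM (1.55), where the lowest library lay inside the range of week 6. Among those that were lower, Slc2a4 had 258, 148, 291, 277 and 217 TPM (-0.52, adjusted p = 0.0163) and Hk2 had 109, 71.5, 139, 122 and 95.1 TPM (-0.55), each below all libraries of week 6. Pygm had 661, 321, 872, 592 and 409 TPM (-0.72), Gys1 had 292, 166, 278, 263 and 214 TPM (-0.65), and Pfkm averaged 602 TPM against 933 TPM (-0.68). The highest Pygm value of week 8 lay inside the range of week 6, whereas Gys1 did not overlap. Without Con replicate 5 of week 8 Pygm missed the threshold (adjusted p = 0.0515). Con replicate 2 had the lowest value at 8 weeks for each of Slc2a4, Hk2, Pygm and Gys1. Macrophage markers summed to 567 to 1119 TPM in Con at 8 weeks against 70.4 to 98.4 TPM at 6 weeks (10 of 10 risen). Adipocyte markers summed to 2551 to 16502 TPM against 1108 to 1282 TPM (7 of 7 risen), and markers of fibro-adipogenic progenitors to 2350 to 5010 TPM against 535 to 705 TPM (6 of 6 risen). Of the fibre markers, 2 of 10 fast and 3 of 8 slow fell. How far these cell types account for the members' shift was not tested.

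In CAC from 2 to 6 weeks, 9 of 38 members were called, 5 higher and 4 lower, beside 13.5% of all genes (9.39% higher, 4.09% lower). The lower ones were Phkg1 (-1.22), Pgam2 (-0.41), Pfkm (-0.40) and Pgm2 (-0.31), and the higher ones Slc2a1 (0.88), Gbe1 (0.50), Pygb (0.47), Pgm1 (0.43) and Gpi1 (0.40). Of these, 8 had groups that did not overlap, a count for which no share over all genes was computed. The CAC libraries had 40.5, 35.0, 22.8, 55.6 and 44.1 TPM of Phkg1 at 2 weeks, all above the 10.7 to 19.6 TPM of week 6. Pfkm had 970, 996, 854, 1035 and 999 TPM at 2 weeks, all above the 686 to 777 TPM of week 6. Calls fell to 3 without CAC replicate 1 of either week, to 4 without replicate 2 of week 6 and to 6 without replicate 4 of either week. Those of Phkg1 and Pfkm held without any single library, though Pfkm was lost in the fit of all 12 groups (adjusted p = 0.119), that of Slc2a1 was lost without replicate 1 of week 2 (adjusted p = 0.0573), and the other 6 were each lost without at least 2 libraries. The difference between CAC and Con at 6 weeks was also tested against that at 2 weeks, and no member passed in limma, beside 2.50% of all genes called. At an unadjusted p under 0.05 there were 12 of 38 members (31.6%) and 17.6% of all genes. The nearest were Pfkm (-0.32, adjusted p = 0.0893), Gpi1 (0.38, 0.108) and Phkg1 (-0.99, 0.119). Without CAC replicate 3 of week 2 or replicate 5 of week 6 this count was 2, and without CAC replicate 5 of week 2 or Con replicate 1 of week 6 it was 1. The difference at 8 weeks against that at 6 weeks gave no called member either, beside 0.192% of all genes called. At an unadjusted p under 0.05 there were 4 members (10.5%) and 14.0% of all genes. Hk1 came nearest (-0.69, adjusted p = 0.063), and 1 member was called without CAC replicate 3 or 4 or Con replicate 4 of week 8. So a change of the CAC effect between weeks was not shown for any member.

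In the enzyme families described here, the group means of the shares lay higher at 8 weeks than at 6. Time cannot be told apart here from anything else that differed between the sets of libraries. The share of Ldha in the TPM of Ldha and Ldhb was 14.7% ± 1.45, 15.3% ± 1.82 and 14.4% ± 2.35 in Con at 2, 4 and 6 weeks, and 23.5% ± 5.25 at 8 weeks (SD, n = 5). In CAC at 8 weeks it was 38.3% ± 13.2 (n = 7), from 21.1 to 62.1% with a median of 37.0%, and in NCAC 25.4% ± 9.09. The CAC library with the highest share, replicate 6, is the one with 2040 TPM of Myh4. The share of Hk1 in both hexokinases was 2.53% in Con and 3.46% in CAC at 6 weeks, and 7.47% and 5.89% at 8 weeks. That of Pygb in both phosphorylases was 1.35% and 1.43% at 6 weeks and 6.10% and 3.58% at 8 weeks. The muscle forms Hk2, Pfkm and Pygm remained most of the transcript in every group. These shares are descriptions and were not tested.

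**Figure D4:**
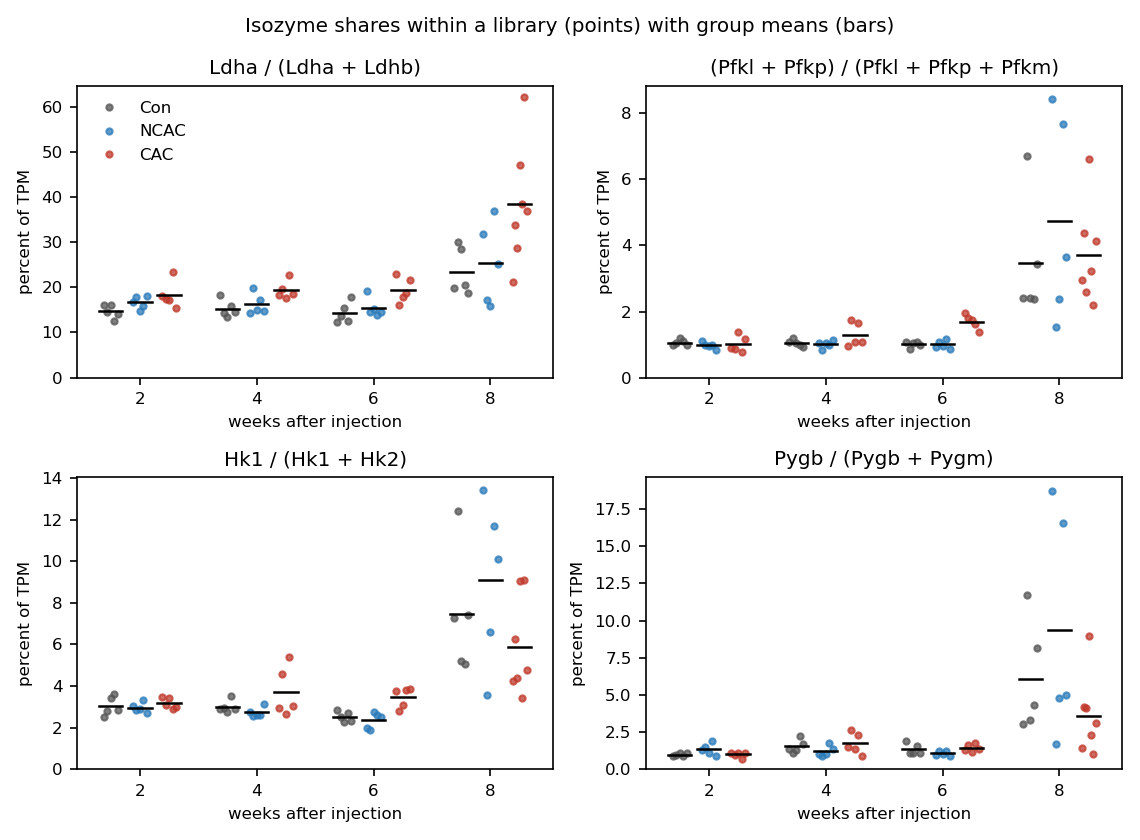
Share of one isozyme in the summed TPM of its family within each library (points) and the group mean (bar), in percent, by weeks after injection, for Con (grey), NCAC (blue) and CAC (red). The group means lie higher at 8 weeks than at 6, and CAC at 8 weeks reaches 62.1% for Ldha against 18.8 to 29.9% in Con.

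Neighbouring steps of the pathway were read at 6 weeks in CAC against Con, from lists that hold none of the 39 genes, where 23.5% of all genes were called as higher and 3.87% as lower. Of 13 genes of glycogen breakdown and its regulation, 4 rose (30.8%) and 1 fell (7.69%). Phkg2, the catalytic subunit of phosphorylase kinase known from liver, rose (0.39, adjusted p = 0.0111) while its muscle counterpart Phkg1 fell. Stbd1, which tethers glycogen (0.70, adjusted p = 0.0168), and Phka2, the liver alpha subunit (0.43, adjusted p = 0.0217), rose too, and Epm2a, the glycogen phosphatase laforin, fell by 0.25 (adjusted p = 0.0187). Of 18 genes that control glucose transport or these genes, 3 rose (16.7%, below the share of all genes) and 0 fell. They were the transcription factors Myc (1.54, adjusted p = 7.3e-05), at 5.60 to 13.2 TPM in CAC and 1.55 to 3.09 TPM in Con, Klf15 (0.64, adjusted p = 0.0103) and Hif1a (0.57, adjusted p = 0.0126).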

How the data were processed

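Messenger RNA of mouse soleus was sequenced from TruSeq stranded libraries on an Illumina NovaSeq, per the labels' protocols. Per the submitters' processing notes the reads were placed on mm10. Aligner, quantifier and gene annotation: not given in the sources used here. The authors deposited 1 table of TPM values for 47643 genes in 62 libraries. TPM fixes every total, so depth and counting error are unknown. No 2 libraries were identical, and the lowest correlation between libraries of a group was 0.912.

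From these values log2(TPM + 1) was computed, with a pseudocount of 1. The 13529 genes with at least 1 TPM in at least 5 libraries were fitted in limma 3.58.1 (R 4.3.3; lmFit, eBayes with trend) and adjusted by Benjamini-Hochberg over all of them. Treatments were compared within a week by a fit of the 3 groups of that week, because the libraries of week 8 varied more. Weeks were compared by a fit of the groups concerned, and changes of the CAC effect by an interaction of CAC and Con with week. Fits were tested on simulated data. Library values are given, in at least 1 of the comparisons, for members called against Con or NCAC at 6 or 8 weeks and for a panel of 12. Of neighbouring lists, up to 4 genes with the smallest adjusted p at 6 weeks are named. A list of other isoforms is not reported here. Members, lists, panel and tests were chosen with earlier results of these data known. Alternatives were a pseudocount of 0.1, no filter, median-of-ratios rescaling (over 13175 genes), TPM without mitochondrial transcripts, a fit of all 12 groups, a replicate block, leaving out 3 libraries in which Myh4 reached 500 TPM, and leaving out each library. Positions come from GENCODE M21 for 37 of 39 members, and promoters from RefSeq. Gpd1 and Slc2a4 had no promoter entry there. Figures were drawn with matplotlib 3.10.9 in Python 3.11.15.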

Additional observations from a re-analysis of the deposited data

Results flagged for a closer look

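Within each group, the panel of 12 members was searched for a library that stands far from its group by Dixon's criterion on the log2 scale. Of 144 combinations of gene and group, 13 were marked, and chance marks about 1 in 20. Of the 13, 3 were in CAC replicate 4 at 2 weeks, the library with 1013 TPM of Myh4: Ldha was 532.6 TPM (others 320.5 to 358.0 TPM), Pygm was 1342 TPM (874.7 to 948.1 TPM) and Pfkfb3 was 25.42 TPM (7.00 to 8.319 TPM).

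In Con at 8 weeks, Ldhb of replicate 2 was 794.3 TPM (others 1228 to 1357 TPM), Slc16a3 of replicate 3 was 5.73 TPM (1.629 to 1.994 TPM) and Ppp1r3c of replicate 5 was 52.47 TPM (75.30 to 86.39 TPM). In Con at 4 weeks, Hk2 of replicate 4 was 123.2 TPM (144.3 to 152.1 TPM), Slc16a3 of replicate 5 was 1.757 TPM (1.099 to 1.225 TPM) and Pfkfb3 of replicate 1 was 7.723 TPM (5.845 to 6.206 TPM). In Con at 2 weeks, Ldhb of replicate 4 was 2020 TPM (1763 to 1834 TPM). In NCAC at 4 weeks, Hk2 of replicate 1 was 156.0 TPM (145.2 to 148.3 TPM) and Ldhb of replicate 2 was 1489 TPM (1741 to 1822 TPM). In NCAC at 2 weeks, Eno3 of replicate 4 was 821.2 TPM (1241 to 1304 TPM). None of the 13 lay in a group of week 6.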

How the results depend on the processing

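No called member changed sign under any alternative run, and of 104 member calls over all comparisons, 52 stayed past the threshold under every one. Slc2a1, Gpi1 and Phkg1 did so in both comparisons of CAC at 6 weeks. Calls of members moved by more than 1.5 times as follows. For CAC against Con at 4 weeks, 1 call became 0 with no filter, 2 without mitochondrial transcripts, 0 in the fit of all 12 groups and 0 with the replicate block. At 6 weeks 14 became 6 in the fit of all 12 groups. At 8 weeks 2 became 0 with no filter, 1 without mitochondrial transcripts, 12 in the fit of all 12 groups, 1 with the block and 0 without the libraries rich in Myh4. For CAC against NCAC at 2 weeks, 1 became 0 with no filter, in the fit of all 12 groups and without the libraries rich in Myh4. At 4 weeks 4 became 2 with no filter, 1 in the fit of all 12 groups and 1 with the block. At 6 weeks 16 became 10 in the fit of all 12 groups. At 8 weeks 5 became 1 with median-of-ratios rescaling, 3 without mitochondrial transcripts, 17 in the fit of all 12 groups and 9 without the libraries rich in Myh4. For CAC at 6 against 2 weeks, 9 became 3 with no filter, 5 in the fit of all 12 groups and 4 with the block. For the change of the CAC effect from 2 to 6 weeks, 0 became 1 without mitochondrial transcripts, and from 6 to 8 weeks 0 became 1 with median-of-ratios rescaling and in the fit of all 12 groups. The fit without a filter tests more genes, and the fit of all 12 groups shares 1 spread between weeks that vary differently. The cause of the moves was not tested under any setting. With each library left out in turn, calls ranged from 0 to 3, 7 to 16 and 0 to 3 for CAC against Con at 4, 6 and 8 weeks, and from 0 to 3, 1 to 7, 11 to 17 and 4 to 9 for CAC against NCAC at 2, 4, 6 and 8 weeks. They ranged from 3 to 11 for CAC at 6 against 2 weeks, 20 to 31 for Con and 19 to 31 for NCAC at 8 against 6 weeks, 0 to 2 for the change of the effect from 2 to 6 weeks and 0 to 1 from 6 to 8 weeks. Against Con at 2 weeks, in Con at 6 against 2 weeks, and between NCAC and Con, the count stayed at 0.

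The replicate number is not stated to pair animals, and the deviations of same-numbered libraries correlated from -0.666 to 0.477 over 16 comparisons. Between 0 and 3 of 5 pairs were over 0.1 and in no comparison all 5, so the number is not taken as a pairing. The most, 3, were in CAC and NCAC at 4 weeks (0.0471 to 0.339), where the block left 1 of 4 calls. For CAC and Con at 6 weeks the range was -0.0734 to 0.115, with 1 of 5 over 0.1. With the replicate block, 14 members were called for CAC against Con and 18 for CAC against NCAC at 6 weeks, 4 against NCAC at 8 weeks, 23 in Con and 25 in NCAC at 8 against 6 weeks. In the comparison of Con and CAC at 6 weeks, 1 of 5 CAC libraries correlated best with its own number.

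Counts over all genes also moved. CAC against Con gave 140 genes at 4 weeks, but 63 with no filter, 84 in the fit of all 12 groups and 68 with the block, and 1430 at 8 weeks, but 4206 in the fit of all 12 groups and 920 with the block. Against NCAC, 68 genes at 2 weeks became 3 with no filter, 30 with median-of-ratios rescaling, 22 without mitochondrial transcripts, 7 in the fit of all 12 groups and 1 without the libraries rich in Myh4. At 4 weeks 790 became 280, 495, 452 and 200 under the first 4 of those and 208 with the block. At 8 weeks 2968 became 1516 with rescaling, 1816 without mitochondrial transcripts and 5837 in the fit of all 12 groups. For CAC at 6 against 2 weeks, 1825 became 1037 with no filter and 1119 with the block. The change of the CAC effect from 2 to 6 weeks gave 338, but 215 with no filter and 24 in the fit of all 12 groups. That from 6 to 8 weeks gave 26, but 3 with a pseudocount of 0.1, 56 with rescaling, 3 without mitochondrial transcripts, 198 in the fit of all 12 groups, 0 with the block and 11 without the libraries rich in Myh4. NCAC against Con gave 0 or 1 gene at each week and at most 6 under any alternative, except 175 at 8 weeks in the fit of all 12 groups. CAC against Con at 2 weeks gave 0, and 1 in that fit.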

Other observations

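Branches that leave glycolysis were also read at 6 weeks in CAC against Con, from lists that hold none of the 39 genes. Of 8 genes of the pentose phosphate pathway, which supplies NADPH and ribose, 3 rose and 0 fell by limma. They were G6pdx, its first enzyme (log2 fold change 0.53, adjusted p = 0.00343), H6pd, its counterpart in the endoplasmic reticulum (0.53, adjusted p = 0.0256), and Tkt, transketolase (0.70, adjusted p = 0.0258). Of 6 tested genes of the hexosamine pathway, which makes the sugar donor of glycosylation, 2 rose and 0 fell. Gfpt2, its entry enzyme, had 5.49 to 9.37 TPM in CAC and 2.46 to 4.00 TPM in Con, with no overlap (0.97, adjusted p = 0.000181), and Uap1 rose by 0.50 (adjusted p = 0.000639).

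Of 15 genes of pyruvate entry and pyruvate dehydrogenase, 1 rose and 2 fell. Pcx, pyruvate carboxylase, which makes oxaloacetate, had 37.2 to 71.8 TPM in CAC and 22.6 to 33.7 TPM in Con, with no overlap (0.91, adjusted p = 0.00231). Mpc2, a subunit of the mitochondrial pyruvate carrier (-0.37, adjusted p = 0.00976), and Pdp1, which activates pyruvate dehydrogenase (-0.63, adjusted p = 0.0227), were lower. Of 4 tested genes of gluconeogenesis, 1 fell and 0 rose. This was Fbp2, the muscle fructose bisphosphatase, at 9.89 to 20.8 TPM in CAC and 20.5 to 29.0 TPM in Con, groups that overlapped (-0.66, adjusted p = 0.0168). Over all genes, 23.5% were called as higher and 3.87% as lower in this comparison.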
